A study of Mus musculus with 28 samples.

Results

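Transcripts of 40 splicing factors and splicing kinases were followed in the CA1 field of the mouse hippocampus. The genes were taken from a list of named symbols, which no measured value enters but which was drawn up with earlier results of these data known, and all 40 were matched to an Ensembl identifier among the 48709 identifiers of the count files. They comprise 12 SR proteins, 9 hnRNP proteins, 7 kinases, 7 proteins of the spliceosome core and 5 neuronal splicing regulators. All 40 passed the filter on low counts, so every one of them was among the 17009 genes tested. Libraries came from 3 groups of mice aged 3 months: 10 from wildtype littermates given vehicle, 9 from mice with the CamkIIδC transgene given vehicle, and 9 from transgenic mice given vorinostat. Vorinostat, an inhibitor of histone deacetylases, or its vehicle was taken in the drinking water over 4 weeks from the age of 2 months. CamkIIδC is a calcium and calmodulin dependent kinase, and as background such transgenic mice are known as a heart failure model in which the kinase is made in heart muscle. Wildtype mice on vorinostat were not analysed here, both sexes were used with the sex of each mouse not given in the sources used here, and the labels do not tie each library to its own mouse. The p-values therefore rest on the spread between libraries, part of which may be technical.

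Introns are removed by the spliceosome, a set of small nuclear ribonucleoproteins and helper proteins that recognises the ends of an intron and joins the exons. SR proteins mostly bind exons and favour their inclusion, hnRNP proteins often act against them, and kinases of the CLK and SRPK families phosphorylate the serine and arginine rich tails of SR proteins and so set where and how they work. Neurons add regulators of the RBFOX, NOVA and CELF families, which shape the splicing of synaptic and channel transcripts. Counts per gene sum over all isoforms of a gene: they measure how much transcript of a splicing factor was present, and no exon choice was measured here.

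Among the 4 CLK kinases, Clk1 and Clk4 had the largest log2 fold changes above 0 with vorinostat, while Clk2 and Clk3 lay below 0. Their coding sequences are shown for the same 60 bases, in exon 11 of 13 of each gene, at the conserved motif of this kinase family, to show how far reads of these relatives can be told apart. Each line runs 5′ to 3′ on the coding strand, from the GENCODE transcripts of GRCm38, and capitals mark bases that differ from Clk1.
Clk1: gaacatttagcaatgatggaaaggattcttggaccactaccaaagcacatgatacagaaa
Clk2: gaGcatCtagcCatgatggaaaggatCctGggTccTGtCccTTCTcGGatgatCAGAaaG
Clk3: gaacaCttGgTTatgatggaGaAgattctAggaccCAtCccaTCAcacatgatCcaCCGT
Clk4: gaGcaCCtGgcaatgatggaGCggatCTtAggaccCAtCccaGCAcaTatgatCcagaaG
The stretches lie at chr1:58412952-58413011 on the minus strand for Clk1, chr3:89175407-89175466 on the plus strand for Clk2, chr9:57752120-57752179 on the minus strand for Clk3 and chr11:51280373-51280432 on the plus strand for Clk4. Of the 60 bases, 20 differ between Clk1 and Clk2, and 18 differ between Clk1 and each of Clk3 and Clk4. No 50-base window of the longest coding transcript of Clk1, Clk2 or Clk4 occurs in a transcript of another annotated gene, and 50 bp was the read length. For Clk3, 19.0% of such windows also occur in Edc3 or AC157214.1, and 15.2% of its exon bases overlap Edc3 on the opposite strand, so its counts are less certain. Over the whole coding sequence, G and C made up 42.1% of bases in Clk1 and 43.24% in Clk4, against 53.73% in Clk2 and 58.36% in Clk3. At the third codon positions the shares were 39.13% for Clk1, 44.28% for Clk4, 65.4% for Clk2 and 66.14% for Clk3.

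Libraries held 20230085 to 33191857 counts, and single members held from 153 counts (U2af1) to 15802 counts (Snrnp70) in a library. A set of 4 libraries stood apart from the other 24: wildtype vehicle 2 and vorinostat 6, 7 and 9. Mitochondrial genes took 6.39 to 7.48% of their counts, against 2.84 to 4.11% elsewhere, and hemoglobin transcripts stood at 75.9 to 135 CPM (counts scaled to a common normalised library size) against 16.9 to 52.1 CPM. Hemoglobin averaged 61.3 CPM with vorinostat and 32.8 CPM in transgenic vehicle (two-sided exact permutation p = 0.00769, adjusted p = 0.0692 over 9 tests of library measures). Of 5 erythroid markers 4 were tested, with summed levels of 21.1 to 106 CPM in wildtype vehicle, 17.9 to 46.1 CPM in transgenic vehicle and 36.7 to 135 CPM with vorinostat, and Hba-a2 had a median below 1 count. All 6 CA1 pyramidal markers were tested, none at 0 in every library. Their sum was 969 to 1400 CPM in the 24 libraries and 824 to 877 CPM in vorinostat 6, 7 and 9. All wildtype vehicle libraries, number 2 included, had 1000 to 1330 CPM, so the low sum was seen in vorinostat 6, 7 and 9 only. The 6 general neuron markers summed to 5360 to 7070 CPM in the 24 and to 6570 to 6700 CPM in those 3, while the 6 oligodendrocyte markers reached 3090 to 7000 CPM in the 24 and 3890 to 6830 CPM in the 3. The part of these library differences in the results below was not tested, and values without the 4 libraries are given beside the main results. In dissected tissue, fewer cells of a type and less RNA per cell cannot be told apart.

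Levels were compared between genes as CPM per kilobase of merged exons. Averaged over the 28 libraries, the members ran from 65.7 ± 5.57 CPM per kb for Hnrnpa2b1 (SD, n = 28), an RNA-binding protein of nuclear and transported transcripts, to 2.12 ± 0.333 for Tra2b, a serine and arginine rich activator of exon inclusion. Next to Hnrnpa2b1 came Rbfox1 at 57.3 ± 5.23, a neuronal regulator, Snrnp70 at 54.9 ± 4.64, the protein of the U1 particle that marks the 5′ end of introns, and Srsf5 at 54.7 ± 4.54, the most abundant SR transcript. The last 3 overlapped within their SD, as did Hnrnpa2b1 and Rbfox1, and their order is not fixed by these values. It also depended on the length used. Per kilobase of the longest transcript, Hnrnpa2b1 (119) and Snrnp70 (104) were followed by Hnrnpl (85.0) and Rbfox1 (82.4), and Srsf5 (62.7) lay below Hnrnpu (72.1). Per kilobase of merged exons Clk1 was the highest kinase, at 18.0 ± 3.21 CPM per kb, followed by Srpk2 at 15.3 ± 1.13, Clk4 at 14.4 ± 2.06 and Prpf4b at 13.3 ± 1.35. Clk2 (7.36 ± 0.678), Srpk1 (6.82 ± 0.274) and Clk3 (4.33 ± 0.326) made up the low kinases, also in CPM per kb. Clk1 and Srpk2 overlapped within their SD, and the order depended on the length used. Per kilobase of the longest transcript, Srpk2 (32.7) lay above Clk1 (30.1), and Srpk1 (17) above Prpf4b (14.3).

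**Figure D1:**
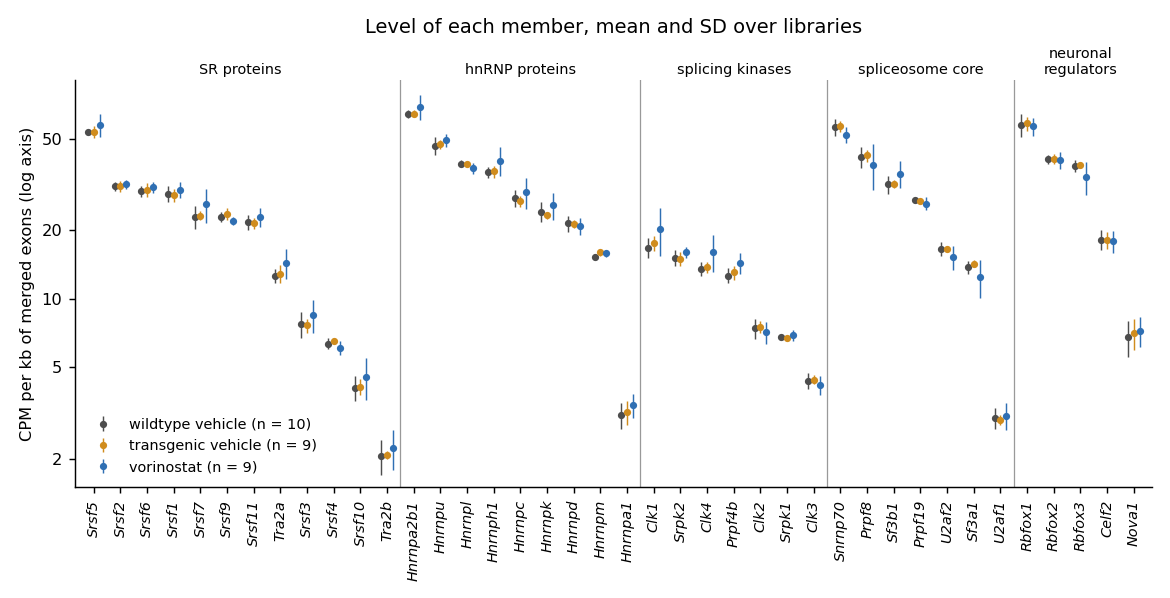
Mean level of each member in CPM per kilobase of merged exons (vertical log axis) in the 3 groups, with bars of 1 SD over libraries. Members are ordered by level within each role, from Srsf5 to Tra2b among SR proteins and from Hnrnpa2b1 to Hnrnpa1 among hnRNP proteins, and the 3 groups lie close to each other beside the range between genes.

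Among neuronal regulators, Rbfox1 was followed by Rbfox2 at 40.5 ± 2.43 CPM per kb and by Rbfox3, the antigen known as NeuN that marks mature neurons, at 36.7 ± 3.90. Celf2 lay at 18.0 ± 1.69 and Nova1 at 7.0 ± 1.12 CPM per kb. Per kilobase of the longest transcript the order was Rbfox1 (82.4), Rbfox3 (67.8), Celf2 (52.5), Rbfox2 (47.7) and Nova1 (8.56), so only the first and the last place were the same on both scales. Nova1 was also the most variable member inside the groups, with a pooled SD of 0.238 on the log2 CPM scale, or 0.229 without the 4 libraries. The lowest levels after Tra2b were U2af1 at 3.02 ± 0.308, which binds the 3′ end of introns together with U2af2, and Hnrnpa1 at 3.23 ± 0.409 CPM per kb, and per kilobase of the longest transcript Hnrnpa1 (3.27) lay below Tra2b (4.75). For U2af1 and Hnrnpa1, 59.4% and 46.4% of 50-base windows of the transcript also occur in other annotated genes, so their counts are uncertain. The same share was 65.4% in Srsf4, 37.8% in Hnrnpk, 35.2% in Srsf2, 31.5% in Srsf3, 29.9% in U2af2, 28.8% in Hnrnpm and 27.9% in Srsf5. Exons of Srsf4 also overlap Gm12992 on the opposite strand over 43.0% of their bases, and the library kit did not keep the strand.

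Setting transgenic against wildtype mice, both on vehicle, asks whether CA1 transcript levels of splicing regulators differ in this heart failure model. No member differed past the threshold. The quasi-likelihood test of edgeR called 0 of 40 members at an adjusted p under 0.05, where it called 0.0% of all genes tested (0 of 17009), as did DESeq2 and limma-voom. At an unadjusted p under 0.05 there were 227 genes by edgeR, 205 by DESeq2 and 221 by limma-voom, and none of them was a member by edgeR. In edgeR these made up 0.67% of genes on the higher and 0.664% on the lower side. Members lay close to no change: 26 log2 fold changes were above 0 and 14 below, with a median of 0.012 and a range from -0.05 to 0.06, while all genes tested had a median of 0.0.

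The member with the smallest p was Hnrnpm, an hnRNP protein that binds GU-rich RNA. It was measured at 116 CPM at the lowest, 121 at the median and 127 at the highest in wildtype vehicle, and at 120, 126 and 136 CPM in transgenic vehicle. The groups overlapped, and the log2 fold change was 0.06 (SE 0.0331, unadjusted p = 0.0951, edgeR adjusted p = 1.0). Srsf9 and Srsf4, both SR proteins, each had a log2 fold change of 0.04, and Hnrnpk and Hnrnpc each had one of -0.05, all 4 with an edgeR adjusted p of 1.0. The 95% interval of the log2 fold change ran from -0.13 to 0.24 for Clk1 and from -0.12 to 0.15 for Rbfox3. For Prpf19, a ubiquitin ligase of the active spliceosome, it ran from -0.09 to 0.06. These intervals use 1 spread shared by all 28 libraries, vorinostat libraries included. Leaving out the 4 libraries changed the SE from 0.0929 to 0.0495 for Clk1, from 0.0679 to 0.03 for Rbfox3 and from 0.0366 to 0.0234 for Prpf19. Kinases ran from -0.02 (Srpk2) to 0.06 (Clk1) on the log2 scale. Neuronal regulators ran from -0.01 (Celf2) to 0.06 (Nova1). Without the 4 libraries, which here leaves out wildtype vehicle 2, 24 members were above 0 and 16 below with a median of 0.014, and 0 members passed an unadjusted p under 0.05 by edgeR, against 2.38% of genes in either direction.

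The comparison of vorinostat with transgenic vehicle asks what 4 weeks of the deacetylase inhibitor did to these transcripts in transgenic mice. It uses the same 9 transgenic vehicle libraries as the comparison above. No member was called by edgeR at an adjusted p under 0.05 (0 of 40, where 0.0% of all genes were called), and the lowest adjusted p of a member was 0.345. DESeq2 called 1 gene and limma-voom 0, neither call being a member. At an unadjusted p under 0.05, edgeR gave 2449 genes, DESeq2 2517 and limma-voom 2547. By edgeR 8 members were on the higher side (Srsf7, Tra2a, Hnrnph1, Hnrnpk, Clk1, Clk4, Prpf4b and Sf3b1), with 7.75% of all genes there, and 6 were on the lower side (Srsf4, Srsf9, Sf3a1, Snrnp70, U2af2 and Rbfox3), with 6.64% of all genes there.

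By role, the log2 fold changes of 10 of 12 SR proteins were above 0 with a median of 0.095, those of 6 of 9 hnRNP proteins with a median of 0.1, and those of 5 of 7 kinases with a median of 0.091. For the spliceosome core 5 of 7 were below 0, with a median of -0.116, and for neuronal regulators 4 of 5, with a median of -0.023. All 40 together had 24 above 0 and a median of 0.045, beside 50.9% above 0 and a median of 0.003 among all genes tested. With 2 other scalings, DESeq2 size factors and upper-quartile factors, each role's median had the same sign. Every one of the 40 ranges overlapped between the groups, a description given without the share over all genes tested. The largest log2 fold changes were 0.22 (Clk4) and -0.19 (Sf3a1).

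**Figure D2:**
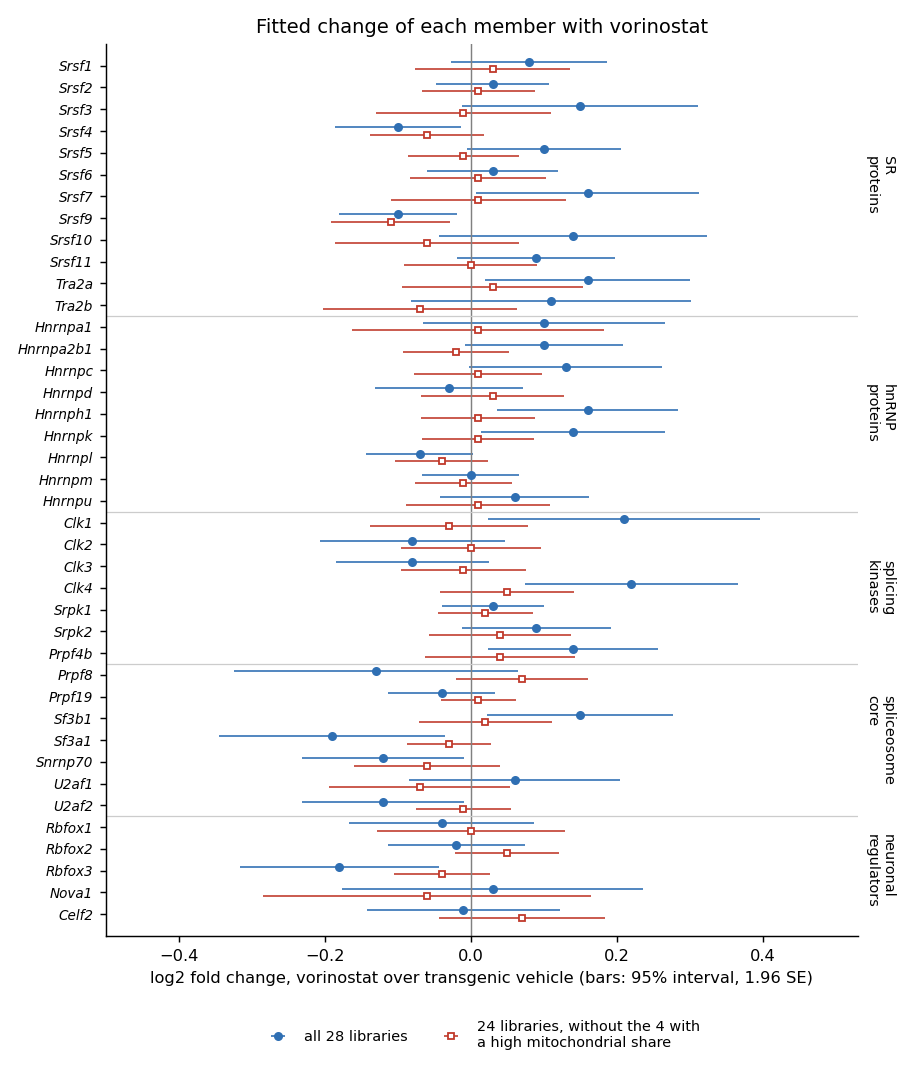
Fitted log2 fold change of each member, vorinostat over transgenic vehicle, with bars of 1.96 SE, from all 28 libraries (filled) and from 24 libraries without wildtype vehicle 2 and vorinostat 6, 7 and 9 (open). The filled points run from -0.19 to 0.22 and the open points from -0.11 to 0.07.

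Clk4, a kinase that phosphorylates SR proteins in the nucleus, had the smallest p of all members. Transgenic vehicle libraries lay between 70.4 and 87.4 CPM with a median of 80.1, and vorinostat libraries between 71.6 and 122 CPM with a median of 85.0. The 3 highest vorinostat libraries, at 107, 112 and 122 CPM, were numbers 9, 6 and 7, and the other 6 reached at most 89.9 CPM. The log2 fold change was 0.22 (SE 0.0743, 95% interval 0.08 to 0.37, unadjusted p = 0.00521, edgeR adjusted p = 0.345). In 8 of 9 treated libraries Clk4 exceeded its transgenic vehicle mean. Without the 4 libraries it was 0.05 (SE 0.0469, edgeR adjusted p = 0.966), and over all alternatives its adjusted p ran from 0.174 to 0.966.

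Clk1, a kinase of the same family, was at 119 to 157 CPM in transgenic vehicle with a median of 140, and at 125 to 232 CPM with vorinostat with a median of 147. Again libraries 6, 9 and 7 were the highest, at 199, 204 and 232 CPM, and the other 6 stayed at or below 156 CPM. The log2 fold change of Clk1 was 0.21 (SE 0.0953, edgeR adjusted p = 0.345), and without the 4 libraries it was -0.03 (SE 0.0553), so the sign in these fits depended on them. In the authors' deposited adjusted values, read as log2, the other 6 vorinostat libraries lay 0.07 above transgenic vehicle for Clk1. Clk2 was at 35.2 to 44.3 CPM (median 39.4) in transgenic vehicle and at 30.6 to 42.0 CPM (median 38.9) with vorinostat. Clk3 was at 35.3 to 40.9 CPM (median 37.0) and at 29.3 to 39.3 CPM (median 35.2). Both had a log2 fold change of -0.08 (SE 0.0644 for Clk2 and 0.0533 for Clk3), and without the 4 libraries these were 0.00 and -0.01.

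Prpf4b, a kinase that phosphorylates spliceosome proteins, ran from 90.7 to 116 CPM (median 112) in transgenic vehicle and from 104 to 140 CPM (median 117) with vorinostat, with a log2 fold change of 0.14 (SE 0.0596, edgeR adjusted p = 0.345) and 0.04 without the 4 libraries. Srpk2, an SR protein kinase of neurons and other cells, ran from 177 to 224 CPM (median 209) and from 197 to 241 CPM (median 222), a log2 fold change of 0.09 (SE 0.0524) that was 0.04 without the 4. Srpk1, its widely expressed relative, ran from 80.6 to 88.0 CPM (median 82.9) and from 75.5 to 91.6 CPM (median 86.1), a log2 fold change of 0.03 with a 95% interval from -0.04 to 0.10, and 0.02 without the 4. For both SRPK transcripts the groups overlapped and the 95% interval of the log2 fold change included 0.

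Among SR proteins, Srsf9 had the smallest p and lay on the lower side. It was at 35.3 to 42.5 CPM (median 38.0) in transgenic vehicle and at 34.0 to 38.3 CPM (median 35.9) with vorinostat. No vorinostat library exceeded the transgenic mean, and the log2 fold change was -0.10 (SE 0.0413, unadjusted p = 0.0169, edgeR adjusted p = 0.345). Srsf9 was the 1 member with an unadjusted p under 0.05 when the 4 libraries were left out, at -0.11 (SE 0.0416, unadjusted p = 0.013, edgeR adjusted p = 0.966, 0.189 to 0.988 over all alternatives), against 3.84% of all genes in either direction. Tra2a, an activator of exon inclusion, was at 72.1 to 99.1 CPM (median 92.8) and at 80.8 to 124 CPM (median 95.1), a log2 fold change of 0.16 (SE 0.0717) that was 0.03 without the 4. Srsf5 was at 192 to 227 CPM (median 222) and at 202 to 269 CPM (median 218), a log2 fold change of 0.10 (SE 0.0538) that was -0.01 without the 4. The other 9 SR proteins ran from -0.10 (Srsf4) to 0.16 (Srsf7) on the log2 scale.

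Of the hnRNP proteins, Hnrnph1, which binds runs of G and can favour or block exons, had the smallest p. It was at 189 to 234 CPM (median 209) in transgenic vehicle and at 202 to 284 CPM (median 219) with vorinostat, where libraries 9, 6 and 7 gave 268, 280 and 284 CPM and the other 6 at most 230 CPM. The log2 fold change was 0.16 (SE 0.0632, edgeR adjusted p = 0.345), and 0.01 without the 4 libraries. Hnrnpa2b1 was at 398 to 440 CPM (median 427) and at 397 to 542 CPM (median 441), a log2 fold change of 0.10 (SE 0.0552) that was -0.02 without the 4. The other 7 hnRNP proteins ran from -0.07 (Hnrnpl) to 0.14 (Hnrnpk).

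The spliceosome core was split. Sf3a1, a protein of the U2 particle that recognises the branch point, was at 82.8 to 91.9 CPM (median 87.1) in transgenic vehicle and at 56.0 to 90.8 CPM (median 83.5) with vorinostat. Its values of 56.0, 57.2 and 59.1 CPM belonged to libraries 7, 9 and 6, and no other vorinostat library was under 82.5 CPM. The log2 fold change was -0.19 (SE 0.0788, edgeR adjusted p = 0.345), and -0.03 without the 4 libraries. Sf3b1, another U2 protein, was at 325 to 374 CPM (median 363) and at 336 to 479 CPM (median 383), a log2 fold change of 0.15 (SE 0.0649) in the other direction, and 0.02 without the 4. Snrnp70 was at 388 to 462 CPM (median 439) and at 344 to 461 CPM (median 402), with a log2 fold change of -0.12 (SE 0.0566), and -0.06 without the 4. Prpf8, the large protein at the catalytic centre, was at 277 to 338 CPM (median 318) and at 193 to 335 CPM (median 326), so its median was above that of transgenic vehicle while its log2 fold change was -0.13 (SE 0.0995). Without the 4 libraries the fold change of Prpf8 was 0.07.

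Rbfox3 was the neuronal regulator with the smallest p. It was at 210 to 232 CPM (median 223) in transgenic vehicle and at 154 to 233 CPM (median 208) with vorinostat, the 3 lowest at 154, 155 and 159 CPM in libraries 9, 6 and 7. The log2 fold change was -0.18 (SE 0.0697, edgeR adjusted p = 0.345), and -0.04 (SE 0.0336) without the 4 libraries. Rbfox1 was at 234 to 285 CPM (median 258) and at 218 to 279 CPM (median 256), and Rbfox2 at 299 to 355 CPM (median 332) and at 282 to 356 CPM (median 330). Their log2 fold changes were -0.04 (SE 0.0649) and -0.02 (SE 0.0480), and without the 4 libraries 0.00 and 0.05. Nova1, a regulator of neuronal exons, was at 51.3 to 81.0 CPM (median 62.3) and at 48.2 to 74.6 CPM (median 66.4), a log2 fold change of 0.03 whose 95% interval of -0.17 to 0.24 was wide, and -0.06 without the 4. Celf2 was at 389 to 515 CPM (median 462) and at 380 to 530 CPM (median 458), a log2 fold change of -0.01 with a 95% interval from -0.14 to 0.12, and 0.07 without the 4. The sign thus turned for Rbfox2, Nova1 and Celf2, none of which had an unadjusted p under 0.05 in either fit.

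Vorinostat libraries 6, 7 and 9 were then described apart, as their mitochondrial share and hemoglobin set them apart. In 17 of 40 members all 3 lay above the other 6 vorinostat and the 9 transgenic vehicle libraries, which held for 14.3% of all genes tested. In 8 members all 3 lay below, which held for 15.9% of genes, and 15 members lay within or across the range. The members were listed with earlier results of these data known, so the shares are a description and no test. By role, 7 SR proteins, 4 hnRNP proteins, 4 kinases and 2 core proteins (Sf3b1 and U2af1) were above. Below were 5 core proteins (Prpf8, Prpf19, Sf3a1, Snrnp70 and U2af2) with Hnrnpl, Clk3 and Rbfox3. All 7 core proteins were thus outside the range of those 15 libraries. Wildtype libraries did not enter these counts, and some of them overlapped the 3, as for Snrnp70 (344 to 387 CPM in the 3 and 366 to 491 CPM in wildtype).

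**Figure D3:**
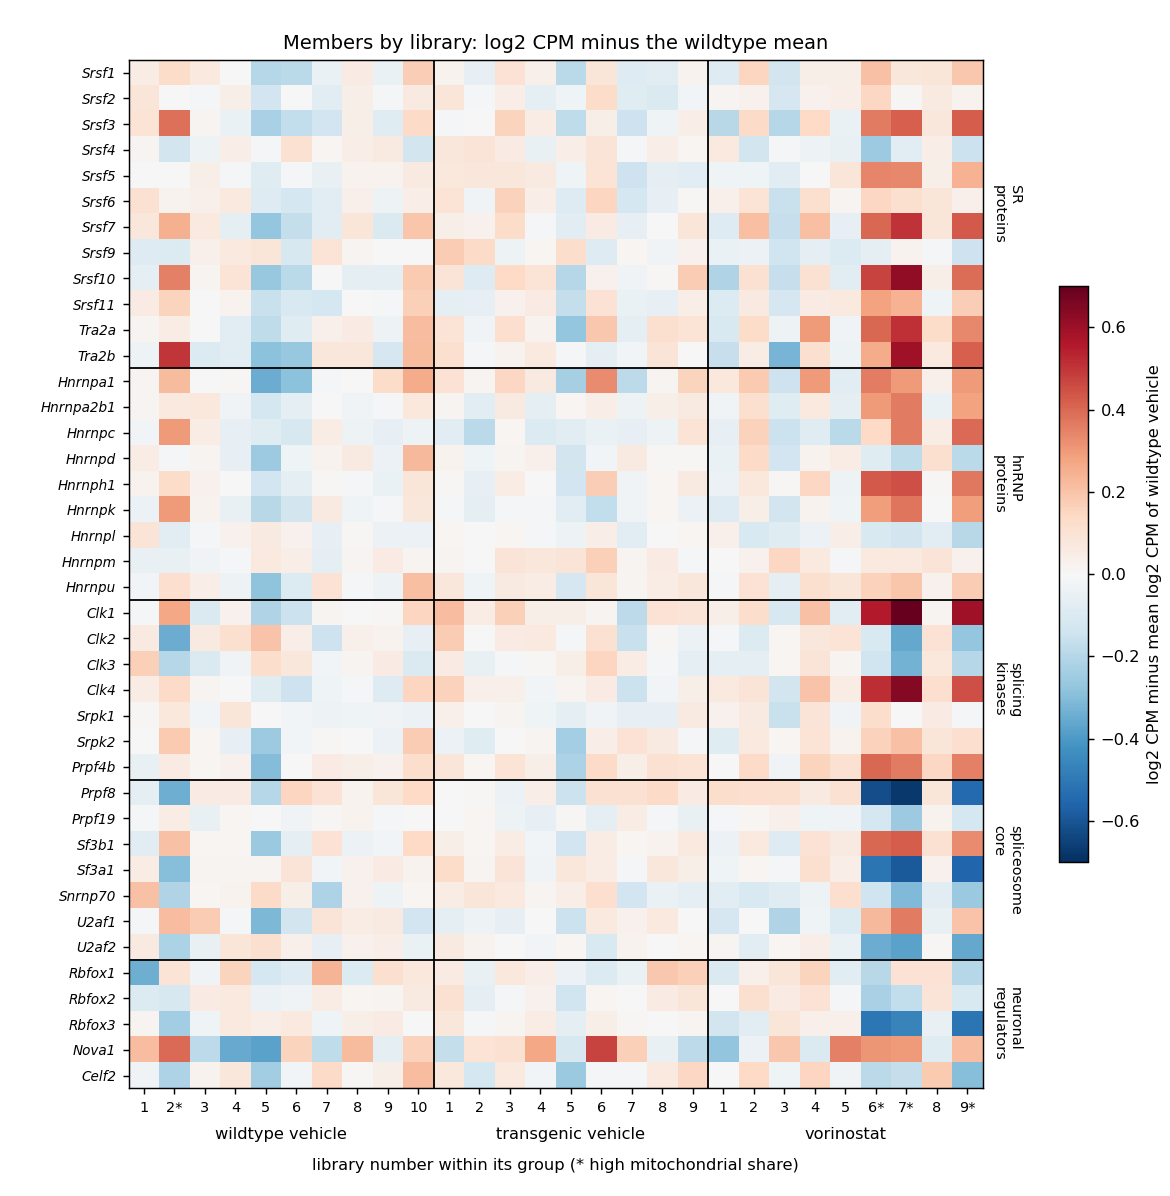
Log2 CPM of each member (rows, by role) in each of the 28 libraries (columns, by group), minus the mean of the 10 wildtype vehicle libraries, with asterisks on the 4 libraries of high mitochondrial share. Vorinostat 6, 7 and 9 show Clk1, Clk4 and most SR proteins above and Prpf8, Sf3a1 and Rbfox3 below the wildtype mean, while the other 6 vorinostat libraries resemble the vehicle groups.

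In mean log2 CPM, these 3 libraries differed from the 24 libraries of lower mitochondrial share by 0.62 for Clk1, 0.52 for Clk4 and 0.51 for Srsf10, the largest positive differences. The largest negative differences were -0.66 for Prpf8, -0.59 for Sf3a1 and -0.51 for Rbfox3. Wildtype vehicle 2, which had no drug and no transgene, differed from the 24 with the same sign in 35 of 40 members. The share of all genes with the same sign is not given, and both differences subtract the same 24 libraries. Its differences were 0.25 for Clk1, 0.53 for Tra2b, -0.39 for Prpf8 and -0.33 for Sf3a1. They were only 0.12 for Clk4, 0.03 for Tra2a and 0.02 for Prpf4b, against 0.52, 0.39 and 0.34 in the 3 vorinostat libraries. In wildtype vehicle 2, Clk1 at 163 CPM was above the 117 to 150 CPM of the other wildtype libraries. Sf3a1 at 68.5 CPM was below their 83.1 to 89.7 CPM, while Clk4 at 85.9 CPM was within their 70.7 to 87.0 CPM. The other 6 vorinostat libraries differed from transgenic vehicle by -0.10 (Srsf9) to 0.08 (Celf2), with a median over members of 0.01.

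**Figure D4:**
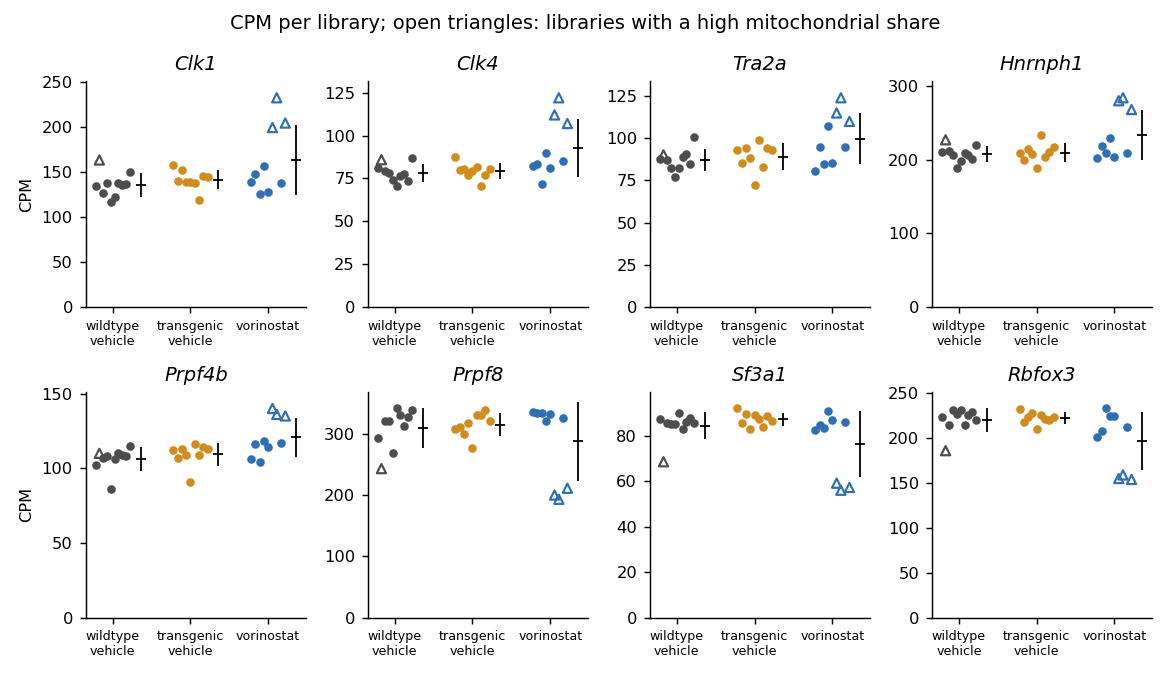
CPM in each library for 8 members, with the mean and 1 SD at the right of each group and open triangles for wildtype vehicle 2 and vorinostat 6, 7 and 9. For Clk1 the triangles of the vorinostat group lie at 199 to 232 CPM above circles at 125 to 156 CPM, and for Sf3a1 they lie at 56.0 to 59.1 CPM below circles at 82.5 to 90.8 CPM.

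When the 4 libraries were left out of the fit, members had 22 log2 fold changes above 0 and 18 below for vorinostat against transgenic vehicle. Their median was 0.004 and their range -0.11 to 0.07. Role medians were -0.002 for SR proteins, 0.006 for hnRNP proteins, 0.021 for kinases, -0.011 for the core and -0.005 for neuronal regulators. With all libraries and the mitochondrial share as a covariate, the median over members was 0.01, with 23 above 0 and a range of -0.11 to 0.09.

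The members also differed in base composition, and their differences followed it. G and C made up 38.5% (Nova1) to 58.8% (Clk3) of the member transcripts, with a median of 44.8%, beside a median of 49.9% over the 16961 tested genes with a transcript sequence. Across the 40 members, the log2 fold change of vorinostat against transgenic vehicle had a Pearson correlation of -0.768 with this share (Spearman -0.675), beside -0.596 over all tested genes. These points come from the same libraries and are no independent replicates, and the correlation is given as a description. Without the 4 libraries it was -0.358 over members. For vorinostat against wildtype vehicle it was -0.758 over members, and -0.702 without the 4. There the correlation was about as strong without them, but the log2 fold changes themselves were smaller. They ran from -0.16 to 0.26 with all libraries and from -0.08 to 0.09 without the 4. For transgenic against wildtype vehicle the correlation was 0.0717 over members with all libraries and -0.477 without the 4.

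**Figure D5:**
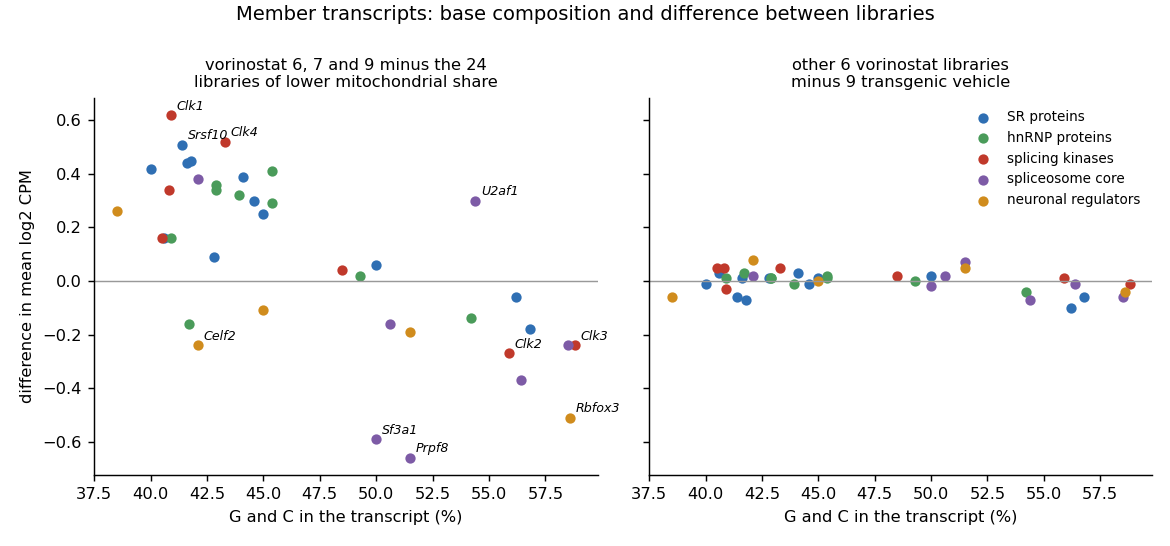
Difference in mean log2 CPM of each member against the share of G and C in its longest coding transcript (%), colored by role: on the left vorinostat 6, 7 and 9 minus the 24 libraries of lower mitochondrial share, on the right the other 6 vorinostat libraries minus transgenic vehicle. The left points descend from 0.62 (Clk1) to -0.66 (Prpf8), with U2af1 at 0.30 and Celf2 at -0.24 off the trend, and the right points stay between -0.10 and 0.08.

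The negative correlation for vorinostat against transgenic vehicle also held over all tested genes (-0.596), and the class counts that follow cover members only. The shares of all tested genes in each class are not given, so the counts are not read as particular to the members. Over all genes of any base composition, vorinostat 6, 7 and 9 lay above the other 6 vorinostat and 9 transgenic vehicle libraries in 14.3%. They lay below them in 15.9%. Of 24 members with under 46% G and C, a class limit chosen after the values were seen, 21 had a log2 fold change above 0 with vorinostat, and in 16 of them vorinostat 6, 7 and 9 all lay above the other vorinostat and the transgenic vehicle libraries. Of 13 members at 50% or more, 12 were below 0 and 8 had those 3 libraries below the same 15. U2af1, with 54.4% G and C, was the 1 member of that class with the 3 libraries above, and Celf2, with 42.1%, was among those of low share with a negative value. The CLK kinases divided the same way, Clk1 (40.9%) and Clk4 (43.3%) against Clk2 (55.9%) and Clk3 (58.8%). Within single libraries, the correlation over members between this share and the deviation from the mean of all libraries ran from -0.685 to 0.826. The 4 libraries had -0.685 to -0.665. Wildtype vehicle 10 and vorinostat 2, with ordinary mitochondrial shares, had -0.619 and -0.538, and wildtype vehicle 5 had 0.826. With the trend of each library on G and C removed by an offset, the median log2 fold change of the members was 0.006, with 23 above 0. The members then ran from -0.19 to 0.14. Clk4 was at 0.11, Sf3a1 stayed at -0.19 and Srsf9 was at 0.00. The median of the neuronal regulators moved away from 0, from -0.023 to -0.111. By edgeR 1 member on the higher and 3 on the lower side had an unadjusted p under 0.05, beside 959 of 17009 genes in either direction. The part of RNA quality or library preparation in this trend was not tested.

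The comparison of vorinostat-treated transgenic mice with wildtype vehicle mice asks whether treated mice still differ from untreated littermates, and it shares its wildtype and its vorinostat libraries with the other two comparisons. The edgeR test called 0 of 40 members at an adjusted p under 0.05, where 0.0% of all genes were called, and DESeq2 and limma-voom called 0 genes. At an unadjusted p under 0.05 they gave 2141, 2206 and 2263 genes in that order. By edgeR 8 members were on the higher side (Srsf5, Srsf7, Tra2a, Hnrnph1, Clk1, Clk4, Prpf4b and Sf3b1), with 6.87% of all genes, and 2 on the lower side (U2af2 and Rbfox3), with 5.71% of all genes. Members had a median log2 fold change of 0.058 with 25 above 0, beside 0.006 and 51.7% for all genes. The members' median was 0.019 without the 4 libraries, with 26 above 0, and none had an unadjusted p under 0.05.

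Clk4 again had the smallest p. Its wildtype values ran from 70.7 to 87.0 CPM with a median of 78.0, and 8 of 9 treated libraries exceeded the wildtype mean. The log2 fold change was 0.24 (SE 0.0723, 95% interval 0.10 to 0.38, edgeR adjusted p = 0.384). Prpf4b ran from 85.8 to 115 CPM (median 108) in wildtype, a log2 fold change of 0.19 (SE 0.0581, edgeR adjusted p = 0.384). Clk1 ran from 117 to 163 CPM (median 136), a log2 fold change of 0.26 (SE 0.0928), and its highest wildtype value was again that of library 2. Tra2a ran from 76.9 to 101 CPM (median 87.5) and Hnrnph1 from 189 to 227 CPM (median 208) in wildtype, with log2 fold changes of 0.19 (SE 0.0699) and 0.17 (SE 0.0616). Without the 4 libraries these 5 were at 0.08, 0.09, 0.06, 0.07 and 0.04, each with an edgeR adjusted p of 0.929 (from 0.152 for Prpf4b to 0.929 over all alternatives), and 4.17% of all genes had an unadjusted p under 0.05 in either direction.

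Other wildtype levels lay near those of both transgenic groups. Clk2 was at 30.8 to 45.0 CPM (median 40.3), Clk3 at 32.1 to 41.4 CPM (median 36.9), Srpk1 at 81.9 to 89.2 CPM (median 83.0) and Srpk2 at 175 to 237 CPM (median 209). Their log2 fold changes with vorinostat against wildtype were -0.06, -0.07, 0.02 and 0.07, and -0.01, -0.02, 0.02 and 0.05 without the 4 libraries. Rbfox3 was at 186 to 231 CPM (median 224) in wildtype, with a log2 fold change of -0.16 (SE 0.0680, edgeR adjusted p = 0.384) that was -0.05 without the 4 libraries. Rbfox1, Rbfox2, Nova1 and Celf2 were at -0.02, -0.01, 0.09 and -0.02, and without the 4 at 0.03, 0.04, 0.05 and 0.04, none with an unadjusted p under 0.05 by edgeR.

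A further 129 splicing genes outside the 40 were followed as a wider view of the machinery, of which 126 were tested. None was called by edgeR in any of the 3 comparisons. For vorinostat against transgenic vehicle, 67 of 126 were above 0 with a median of 0.023, and 25 on the higher and 11 on the lower side had an unadjusted p under 0.05, beside 7.75% and 6.64% of all genes. When the 4 libraries were left out, 58 were above 0 with a median of -0.007. In that fit 0 on the higher and 6 on the lower side had such a p, beside 3.84% of all genes in either direction. With the offset for G and C these counts were 2 and 12, beside 959 of 17009 genes in either direction. Rsrc1, an SR-related protein, stood at 43.9 and 39.5 CPM in vorinostat and transgenic vehicle (log2 fold change 0.15, SE 0.0535), and Ptbp2, the PTB protein of neurons, at 104 and 90.2 CPM (0.20, SE 0.0732). On the lower side Hnrnpa0 stood at 80.4 and 92.2 CPM (log2 fold change -0.20, SE 0.0550) and Sf3b4 at 7.94 and 9.45 CPM (-0.25, SE 0.0934), all 4 with an edgeR adjusted p of 0.345. Rsrc1 was at 0.05, Ptbp2 at 0.07, Sf3b4 at -0.09 and Hnrnpa0 at -0.10 without the 4 (unadjusted p = 0.0138 by edgeR for Hnrnpa0). Against wildtype vehicle, Ddx46 (0.16) and Hnrnph3 (0.13) had the smallest p on the higher side, Hnrnpa0 (-0.20) and Snrpa (-0.12) on the lower, at 0.11, 0.10, -0.10 and -0.09 without the 4. For transgenic against wildtype vehicle these were Aqr (0.10) and Hnrnph3 (0.09), and Celf4 (-0.08) and Elavl2 (-0.13), with 65 of 126 above 0 and a median of 0.001, which was -0.004 with upper-quartile scaling. These 4 genes were at 0.09, 0.10, -0.09 and -0.11 in that order without wildtype vehicle 2 and vorinostat 6, 7 and 9.

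The authors' deposited table of coexpression modules placed its 18014 genes in 14 modules, all 40 members among them. By that table, 13 members (32.5%) belonged to the module named purple, which held 14.8% of its genes, and 10 (25.0%) to lightcyan, which held 8.5%. The green module took 7 members (17.5%) and 16.5% of the table's genes. Purple held Clk1, Clk4, Prpf4b, Srsf10, Tra2a, U2af1, Sf3b1 and 6 hnRNP genes, and lightcyan held 8 of 12 SR proteins with Hnrnpm and Srpk2. Green held Srsf4, Srsf9, Clk2, Prpf8, Sf3a1, U2af2 and Rbfox3. In the authors' deposited adjusted expression values, read as log2, vorinostat minus transgenic vehicle was positive for all 13 purple members, at 0.04 to 0.19, for all 10 lightcyan members, at 0.01 to 0.13, and for 1 of 7 green members, at -0.14 to 0.01. Of the 40 members 27 were positive there, and 35 had the same sign as in edgeR. Modules and counts come from the same libraries, so the modules are no independent evidence.

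Splicing genes are known to regulate themselves by making transcripts that are kept in the nucleus or degraded, and several SR genes carry an exon whose inclusion marks the transcript for nonsense-mediated decay. In the GENCODE annotation, 29 of 40 members (72.5%) had a transcript of the nonsense-mediated decay class, against 27.3% of 14482 tested protein-coding genes. A retained-intron transcript was annotated for 34 members (85.0%), against 56.5%. All 7 kinases had both classes, and so Clk1, with 13 transcripts, had 7 retained-intron and 2 decay transcripts, and Clk4, with 14, had 7 and 3. Of the 5 neuronal regulators 1 had a decay transcript and 3 a retained-intron transcript. Members had a median of 10 annotated transcripts against 5 for those genes, and the gene counts hold reads of all these classes together.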

How the data were processed

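RNA of dissected, snap-frozen CA1 tissue was sequenced as polyA-selected, unstranded 50 bp single reads, per the labels' protocols. The authors aligned reads with STAR 2.5.2b to mm10 and made raw counts per Ensembl gene with featureCounts (Subread 1.5.1) after FastQC 0.11.5, per the submitters' processing notes. How that counting handled strand and multimapping reads, and on which gene models, is not given in the sources used here. An expression table deposited by the authors, read here as log2, was adjusted with a mixed linear model, going by its name. Neither the base nor the terms of the model were stated. Their module membership values are a score per gene, as the authors deposited them. The 40 members and all gene lists were chosen with earlier results of these data known.

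Symbols, coordinates, exon lengths and base composition came from GENCODE vM21 (GRCm38), which matched 48349 of 48709 identifiers. Depth was 20230085 to 33191857 counts per library. Genes were kept with edgeR's filterByExpr (minimum count 10, minimum total 15), scaled with TMM and tested with edgeR's robust quasi-likelihood test in 1 fit over 28 libraries, so that the 3 groups share 1 estimate of the spread, with Benjamini-Hochberg adjustment over 17009 genes at 0.05. Log2 CPM used a prior count of 2, standard errors were derived from the fold change and F, and intervals are 1.96 SE. CPM uses the TMM-scaled library size. Values were named for the 5 members of smallest p per comparison, the highest member per role, every kinase and every neuronal regulator, and for the 2 other splicing genes of smallest p in each direction; further members are named where a difference between libraries turns on them, chosen after their values were seen. Alternatives were DESeq2 1.42.0, limma-voom 3.58.1, other size factors, no filter on low counts, only the groups compared, replicate blocks, covariates and leaving out libraries. The offset for base composition was added after the data were seen. The tests were checked on simulated data. R 4.3.3 with edgeR 4.0.16 and Python 3.11.15 were used.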

Additional observations from a re-analysis of the deposited data

Results flagged for a closer look

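In 11 of 120 groups of a member's CPM values, 1 library lay further from its nearest neighbour than Dixon's 95% limit allows for the group's range, and chance flags about 1 in 20 groups. Wildtype vehicle 2, one of the 4 libraries of high mitochondrial share, accounted for 4 of them. It had Hnrnpc at 146 CPM against 110 to 123 CPM in the other wildtype libraries and Hnrnpk at 190 CPM against 135 to 163 CPM. In the same library Sf3a1 was at 68.5 CPM against 83.1 to 89.7 CPM, and Rbfox3 at 186 CPM against 215 to 231 CPM. Transgenic vehicle 5 was low for 3 members, with Hnrnpd at 143 CPM (153 to 163 in the rest of its group), Prpf4b at 90.7 CPM (107 to 116) and Sf3b1 at 325 CPM (353 to 374). Transgenic vehicle 6 had Hnrnpk at 137 CPM against 146 to 156 CPM and U2af2 at 62.9 CPM against 66.9 to 70.8 CPM. Prpf4b stood at 85.8 CPM in wildtype vehicle 5, below the 102 to 115 CPM of its group. Srsf6 stood at 127 CPM in vorinostat 3, below the 143 to 156 CPM of its group.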

How the results depend on the processing

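No member was called in any comparison under any alternative run. The number of all genes called for vorinostat against transgenic vehicle was 0 with edgeR, 1 with DESeq2 and 3 with Xist as a covariate, and 0 to 1 when single libraries were left out (1 without vorinostat 3). Against wildtype vehicle it was 0, and 0 to 3 when single libraries were left out (3 without wildtype vehicle 2, 1 without wildtype vehicle 5). For transgenic against wildtype vehicle it was 0 throughout. The cause of these differences was not tested. The median log2 fold change of the members with single libraries left out was 0.0272 to 0.0675, 0.0443 to 0.0763 and 0.00144 to 0.0191 in the same order. Leaving out the 4 libraries together gave 0.004 for vorinostat against transgenic vehicle, where all libraries gave 0.045. No result reversed a call.

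With the titles' replicate numbers as a block, vorinostat against wildtype vehicle gave 1 gene called and no member. The samples share only a number: 3, 3 and 1 of 9 same-numbered pairs had a correlation of deviations over 0.1.

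Sums over isoforms limit these data, as does the placing of the 4 libraries of high mitochondrial share, 3 in the vorinostat group, 1 in wildtype vehicle and none in transgenic vehicle.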
